A study of Mus musculus with 16 samples.

Results

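Cell cycle and mitosis genes were examined in bone endothelial cells (ECs) as 42 members named by symbol, out of 20261 gene symbols that all 3 expression tables of the series hold. The members were 13 genes of S phase and DNA replication (Mcm2 to Mcm7, Pcna, Cdc6, Cdc45, Gins2, Rrm1, Rrm2 and Tyms), 19 genes of mitosis (Mki67, Top2a, Ccna2, Ccnb1, Ccnb2, Cdk1, Cdc20, Birc5, Bub1, Bub1b, Aurka, Aurkb, Plk1, Tpx2, Kif11, Kif20a, Cenpe, Cenpf and Ube2c), 7 genes of G1 and the G1/S step (Ccnd1, Ccnd2, Ccnd3, Ccne1, Ccne2, Cdk2 and E2f1), and 3 inhibitors of cyclin-dependent kinases (Cdkn1a, Cdkn1b and Cdkn2c). The rule takes them by symbol alone, and all 42 passed the filter on low values in each comparison. RNA sequencing covered 16 libraries of ECs sorted from bones of C57BL/6 mice at 3 weeks of age.

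The first comparison set 3 libraries of metaphyseal ECs (mpECs) against 3 libraries of bmECs, the ECs of the diaphyseal bone marrow, both from wildtype mice that carried the Cdh5-mT/nG reporter. The second set 3 libraries of Yap1flx/flx; Wwtr1flx/flx mice with Cdh5CreERT2, labelled Yap1/Taz iΔEC, against 3 libraries of littermates with the same floxed alleles but no Cre, all at postnatal day 21. The third set 2 libraries of Lats2flx/flx mice with Cdh5CreERT2 (Lats2 iΔEC) against 2 libraries of Cre-negative Lats2flx/flx littermates. Cdh5CreERT2 is a Cre recombinase that is active in ECs once tamoxifen is given, so that other cells of the bone keep the floxed alleles. Pups received daily tamoxifen on 1 of 2 schedules, and the later one, around the end of the first postnatal week, is the one that the study followed by analysis of Yap1/Taz mutants at day 21. Animals were combined irrespective of their sex. Which schedule the Lats2 libraries had, and the number of animals behind each library, are not given in the sources used here. The methods speak of biological replicates and the labels of replicates only, so p-values measure the spread between these libraries.

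A dividing cell first commits to DNA synthesis in G1, driven by D- and E-type cyclins with their kinases and held back by inhibitors of the Cip/Kip and INK4 families, and then replicates its DNA in S phase with the Mcm helicase and the sliding clamp Pcna. E2F transcription factors switch on many replication genes at the G1/S border, whereas many mitotic genes are switched on later, in G2, through promoter elements known as the CHR and the CCAAT box. In growing bone, vessels of the metaphysis, close to the growth plate, are known as a zone of active growth, whereas sinusoids of the marrow are regarded as more quiescent.

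Promoters are shown here because E2F and CHR letters are those known for genes of S phase and of mitosis, the classes compared below. RefSeq promoter windows of build GRCm38.p6 were found for 11 of 13 S phase members and 15 of 19 mitosis members. On either strand of the 250 bases before the start, E2F letters (TTTCCCGC, TTTGGCGC or TTCCCGCC, the first and the last of which can overlap) were present in 5 S phase members (45.5%; Mcm5, Mcm6, Mcm7, Cdc6 and Rrm1) and in 0 mitosis members, against 3.10% of the promoters of all 27025 genes. CHR letters (TTTGAA or TTTAAA, the second of which reads the same on both strands) were present in 11 mitosis members (73.3%) and 3 S phase members (27.3%), against 28.1% of all. CCAAT was frequent in both, in 14 mitosis members (93.3%) and 9 S phase members (81.8%), against 37.5% of all. In wider lists of genes of the same phases, E2F letters were present in 10 of 42 S phase genes (23.8%) and 2 of 54 mitosis genes (3.70%), and CHR letters in 8 of the S phase genes and 21 of the mitosis genes (38.9%), the last of which is a lower share than among the mitosis members. These are matches of letters and not measured binding sites. The 170 bases before the start of 2 helicase genes, with E2F letters in capitals, and of 4 mitosis genes, with CHR letters in capitals, read 5′ to 3′ on the strand of the gene as follows.
Mcm5 (chr8:75109339-75109508, plus strand): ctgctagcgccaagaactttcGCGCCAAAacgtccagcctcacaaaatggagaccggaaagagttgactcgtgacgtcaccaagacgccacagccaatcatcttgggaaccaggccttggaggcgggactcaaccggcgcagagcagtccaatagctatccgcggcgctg
Mcm6 (chr1:128359706-128359875, minus strand): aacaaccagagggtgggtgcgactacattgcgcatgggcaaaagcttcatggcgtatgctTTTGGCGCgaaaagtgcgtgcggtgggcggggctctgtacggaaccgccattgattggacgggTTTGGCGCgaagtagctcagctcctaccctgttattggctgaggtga
Cdk1 (chr10:69352913-69353082, minus strand): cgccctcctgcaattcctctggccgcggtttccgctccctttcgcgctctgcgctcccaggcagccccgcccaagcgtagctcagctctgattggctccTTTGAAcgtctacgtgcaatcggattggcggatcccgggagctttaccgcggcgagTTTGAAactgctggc
Cdc20 (chr4:118437344-118437513, minus strand): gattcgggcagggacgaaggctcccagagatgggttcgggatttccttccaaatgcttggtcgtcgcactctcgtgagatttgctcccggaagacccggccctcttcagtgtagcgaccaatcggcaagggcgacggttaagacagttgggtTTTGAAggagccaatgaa
Ube2c (chr2:164769759-164769928, plus strand): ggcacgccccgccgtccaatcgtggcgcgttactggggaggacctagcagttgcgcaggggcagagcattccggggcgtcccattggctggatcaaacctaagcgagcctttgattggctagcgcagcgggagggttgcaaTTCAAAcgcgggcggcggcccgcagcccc
Plk1 (chr7:122159265-122159434, plus strand): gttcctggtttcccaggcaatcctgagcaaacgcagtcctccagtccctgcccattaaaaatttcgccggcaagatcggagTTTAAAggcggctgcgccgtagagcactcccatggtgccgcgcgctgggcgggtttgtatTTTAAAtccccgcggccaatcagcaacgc
Mcm5 and Ube2c hold their letters on the other strand, so that they read GCGCCAAA and TTCAAA above. In Mcm6 the E2F letters begin 110 and 47 bases before the start, and in Mcm5 they begin 149 bases before it. In Cdk1 the CHR letters begin 71 and 15 bases before the start, in Plk1 89 and 29, in Ube2c 29 and in Cdc20 18.

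Values are FPKM, fragments scaled to gene length and library size, so that levels of different genes can be compared within a table but not between the 3 tables, which were normalised separately. Reads on genes, recovered from the FPKM steps, numbered 11550492 to 15428891 in the mpEC and bmEC libraries, 4886001 to 7166568 in the Yap1/Taz libraries and 4875145 to 7335231 in the Lats2 libraries. All 10 endothelial markers examined, such as Cdh5 and Pecam1, were above 0 in every library, and markers of blood cells were present as well. Summed over 11 listed erythroid markers, values reached 28418 to 60589 FPKM in the mpEC and bmEC libraries, above the 1198 to 1600 FPKM of the endothelial list. In bulk samples of this kind, fewer cells of a type and less RNA per cell cannot be told apart. Wwtr1, which encodes Taz, was at 10.01, 9.88 and 10.3 FPKM in controls and at 15.3, 19.6 and 19.5 FPKM in the libraries labelled Yap1/Taz iΔEC, which is higher and not lower (log2 fold change 0.78, SE 0.12, limma adjusted p = 0.0272). Yap1 was at 1.07, 1.62 and 0.995 FPKM and 1.43, 1.03 and 0.989 FPKM. These gene totals go against the label, although reads from exons that a deletion leaves in place count towards them. The study itself reports lower Wwtr1 and Yap1 transcripts by quantitative PCR in isolated mutant ECs, and weaker Yap1 staining of mutant bone vessels. Lats2 was at 23.4 and 24.0 FPKM in controls and 19.2 and 19.2 FPKM in Lats2 iΔEC libraries (log2 fold change -0.29, SE 0.11, limma adjusted p = 0.125), lower in both but not past the threshold. Gm49361 covers 42.4% of the Lats2 exon bases on the same strand, and reads from exons left in place count here too. For Lats2 as well, the study reports a significantly lower transcript level in isolated mutant bone ECs.

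**Figure D1:**
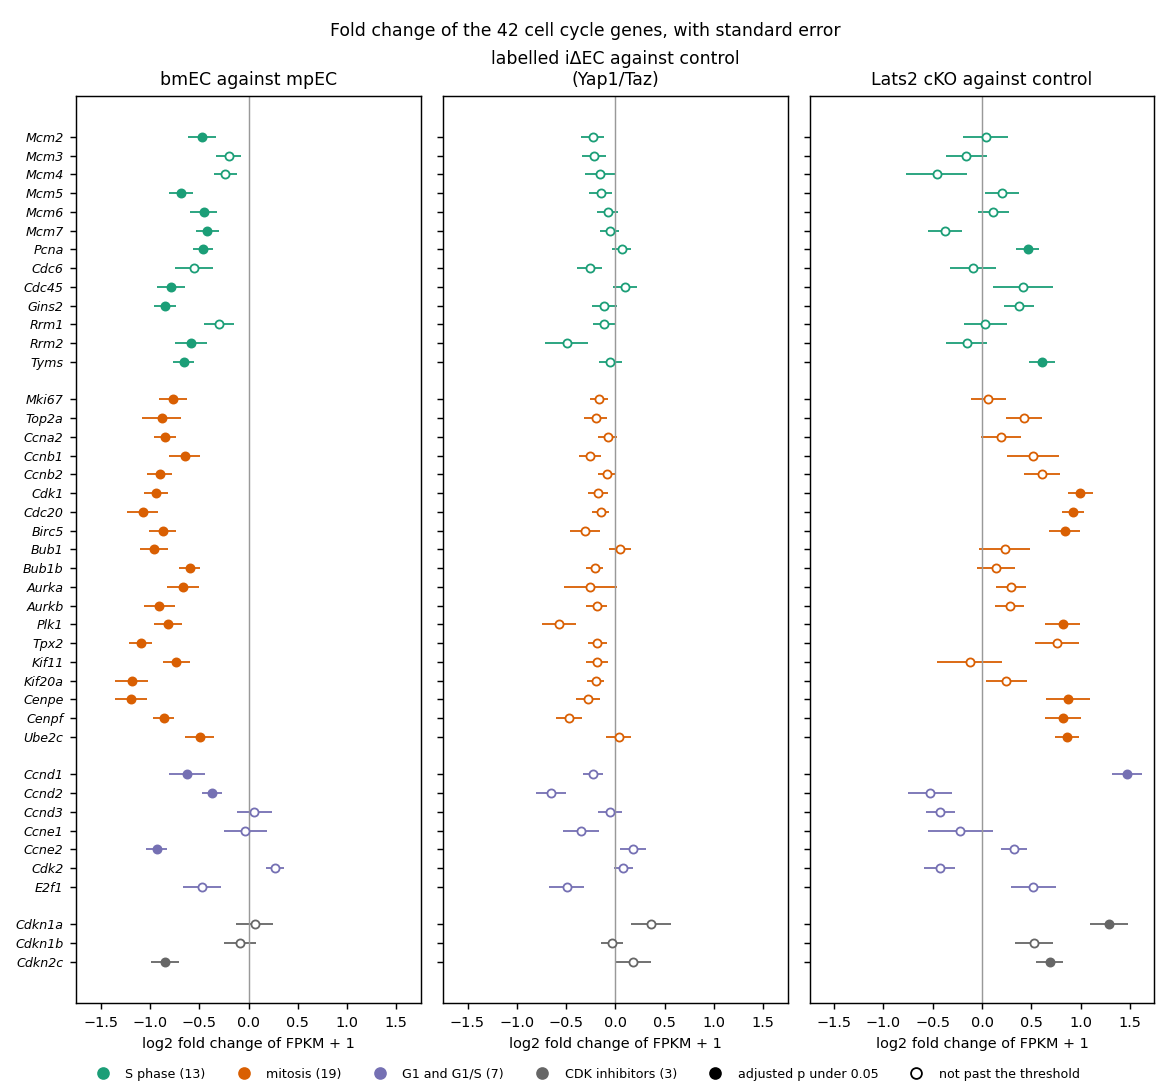
Log2 fold change on the FPKM + 1 scale (x axis, points, with bars of 1 standard error) of the 42 members in the 3 comparisons, ordered by role; filled points had a limma adjusted p under 0.05. All 19 mitosis members were lower in bmECs, none of the 42 passed in the libraries labelled Yap1/Taz iΔEC, and 7 mitosis members were higher in Lats2 iΔEC libraries.

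Comparison of bmECs with mpECs asked how ECs of the 2 regions differ. Cell cycle genes were lower in bmECs: 32 of 42 members fell and 0 rose at a limma adjusted p under 0.05, where 10.5% of all 11422 genes tested were lower and 13% higher. All 19 mitosis members fell, with a median log2 fold change of -0.87 (range -1.20 to -0.50), and 9 of 13 S phase members fell, with a median of -0.47 (range -0.85 to -0.20), while the median over all genes tested was -0.000677. All 19 mitosis members lay below the median of the S phase members, and 11 of them lay below every S phase member. Each mpEC library exceeded each bmEC library in all 19 mitosis members and 10 of 13 S phase members, where 19.2% of all genes tested showed this (22.1% showed the opposite, 41.3% either). The mpEC replicate 1 library had the highest value of all 13 S phase and all 19 mitosis members. It also had the highest summed neutrophil markers (28134 FPKM, 11785 and 18159 in the other mpEC libraries) and B cell markers (431 FPKM, against 236 and 210.1). Its macrophage (2072 FPKM) and osteoblast (712 FPKM) sums were the highest of any mpEC or bmEC library, and its endothelial sum (1198 FPKM) the lowest. The highest erythroid and megakaryocyte sums were in bmEC replicate 1. Without mpEC replicate 1, 18 mitosis and 7 S phase members still fell, with medians of -0.72 and -0.39. Without bmEC replicate 1, 2 or 3 the mitosis count was 18, 15 or 16 and the S phase count 5, 5 or 7.

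Among genes of spindle assembly and chromosome movement, Cenpe, a kinesin that links kinetochores to microtubules, was at 14.3, 9.22 and 10.04 FPKM in mpECs and 4.46, 3.86 and 4.44 FPKM in bmECs. This was the largest difference of any member, 2.63-fold lower by group means (log2 fold change -1.20, SE 0.16, limma adjusted p = 0.00144). Kif20a, a kinesin of the central spindle, was at 28.0, 21.0 and 18.8 FPKM in mpECs and 10.7, 7.58 and 9.67 FPKM in bmECs, and 29.3% of its exon bases are covered by Cdc23 on the other strand. Tpx2, which activates Aurora A on the spindle, was at 37.2, 27.7 and 29.4 against 14.5, 14.0 and 13.6 FPKM and had the smallest adjusted p of the members (log2 fold change -1.10, SE 0.12, limma adjusted p = 0.000508). Kif11, the motor that pushes spindle poles apart, was at 40.3, 28.5 and 30.7 FPKM against 21.7, 18.3 and 18.2 FPKM. Cenpf, a kinetochore protein made in G2, was at 10.4, 8.35 and 8.73 FPKM against 4.58, 4.67 and 4.47 FPKM, 2.00-fold lower by group means. In each of these 5 genes the lowest mpEC library lay well above the highest bmEC library.

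Regulators of mitotic entry and exit also fell. Cdk1, the kinase that drives mitotic entry, was at 39.3, 29.2 and 29.8 FPKM in mpECs and 16.8, 16.4 and 16.1 FPKM in bmECs, a level 1.99-fold lower (log2 fold change -0.94, SE 0.12, limma adjusted p = 0.00118). Its partner Ccnb2 was at 156, 115 and 121 against 73.3, 63.5 and 69.2 FPKM, the highest level of a mitosis member, and Ccnb1 was at 41.0, 27.6 and 29.8 against 23.3, 18.4 and 19.2 FPKM. Ccna2, the cyclin of S phase and G2, was at 35.4, 27.2 and 27.4 against 16.3, 15.5 and 16.5 FPKM. Cdc20, which activates the anaphase-promoting complex (APC/C), was at 87.0, 59.0 and 58.6 FPKM and 33.8, 29.4 and 30.8 FPKM (log2 fold change -1.08, SE 0.15, limma adjusted p = 0.00205). Ube2c, the ubiquitin-conjugating enzyme of the same complex, was at 71.9, 48.3 and 56.6 against 45.8, 37.7 and 39.8 FPKM, the smallest change among mitosis members (log2 fold change -0.50, SE 0.15, limma adjusted p = 0.0448). Its call held in 7 of 14 alternative fits, and 22.8% of its exon bases lie under Tnnc2 on the other strand.

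The mitotic kinases and their partners were also lower in every bmEC library than in any mpEC library. Plk1, the polo-like kinase, was at 34.9, 25.6 and 26.1 FPKM in mpECs and 17.98, 14.8 and 14.7 FPKM in bmECs. Aurora kinase Aurka was at 31.9, 23.0 and 22.2 against 18.4, 13.3 and 15.5 FPKM, and Aurkb was at 26.0, 18.1 and 18.2 against 11.8, 8.97 and 10.8 FPKM. Birc5, the survivin subunit of the Aurora B complex, was at 54.8, 37.3 and 42.1 against 25.0, 22.1 and 24.0 FPKM. The spindle checkpoint kinases were lower in level, with Bub1 at 11.1, 8.19 and 9.15 against 4.91, 3.67 and 4.59 FPKM and Bub1b at 13.3, 11.4 and 11.7 against 7.76, 6.83 and 8.47 FPKM. Mki67, the source of the proliferation antigen Ki-67, was at 26.1, 17.7 and 21.3 FPKM against 12.7, 10.9 and 13.2 FPKM (log2 fold change -0.76, SE 0.14, limma adjusted p = 0.00707). Top2a, the topoisomerase that untangles sister chromatids, was at 50.3, 33.1 and 31.6 against 24.6, 16.8 and 18.99 FPKM.

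The replicative helicase and its clamp had a smaller median change than the mitosis genes, and 5 of these 7 genes fell. Mcm5 had the largest change of the Mcm2 to Mcm7 subunits, from 37.6, 31.1 and 31.4 FPKM in mpECs to 18.5, 18.9 and 23.7 FPKM for bmECs (log2 fold change -0.69, SE 0.12, limma adjusted p = 0.00531). Mcm2 was at 22.9, 21.7 and 22.3 against 13.1, 15.1 and 19.9 FPKM, Mcm6 at 116, 84.2 and 81 against 65.1, 64.8 and 71.9 FPKM, and Mcm7 at 29.5, 22.9 and 22.5 against 18.1, 17.9 and 18.8 FPKM. These also fell, but the calls of Mcm2 and Mcm6 held in 7 of 14 alternative fits each. Mcm3 (74.1, 59.9 and 56.4 against 56.6, 48.6 and 59.5 FPKM) and Mcm4 (44.9, 34.3 and 36.2 against 31.3, 34.6 and 31.2 FPKM) overlapped between the groups and did not pass (limma adjusted p = 0.281 and 0.181). Pcna was at 64.0, 51.1 and 50.7 FPKM against 39.6, 40.1 and 39.0 FPKM, 1.40-fold lower (log2 fold change -0.46, SE 0.10, limma adjusted p = 0.0149). Over Mcm2 to Mcm7 and Pcna the median log2 fold change was -0.46, against -0.87 for mitosis members.

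Other replication genes showed a wide spread. Gins2, a subunit of the GINS complex at the fork, was at 6.78, 5.82 and 5.48 FPKM against 2.85, 3.02 and 2.80 FPKM, the largest S phase change (log2 fold change -0.85, SE 0.11, limma adjusted p = 0.00135). Gse1 covers 67.3% of its exon bases on the other strand, and the strand setting of the read counting is not stated. Cdc45, which joins Mcm and GINS in the active helicase, was at 14.6, 10.7 and 10.2 against 5.83, 6.57 and 6.68 FPKM. Tyms, which makes thymidylate, was at 21.2, 17.0 and 20.3 against 12.2, 12.1 and 11.5 FPKM. The ribonucleotide reductase subunits differed, since Rrm2 fell from 205, 131 and 147 to 104, 97.6 and 115 FPKM, the highest level of all members, while Rrm1 was at 97.0, 71.5 and 63.8 against 68.3, 58.6 and 58.4 FPKM and did not pass (limma adjusted p = 0.199). The loading factor Cdc6 did not pass either, with a log2 fold change of -0.55 (SE 0.19, limma adjusted p = 0.0707), although its groups did not overlap.

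**Figure D2:**
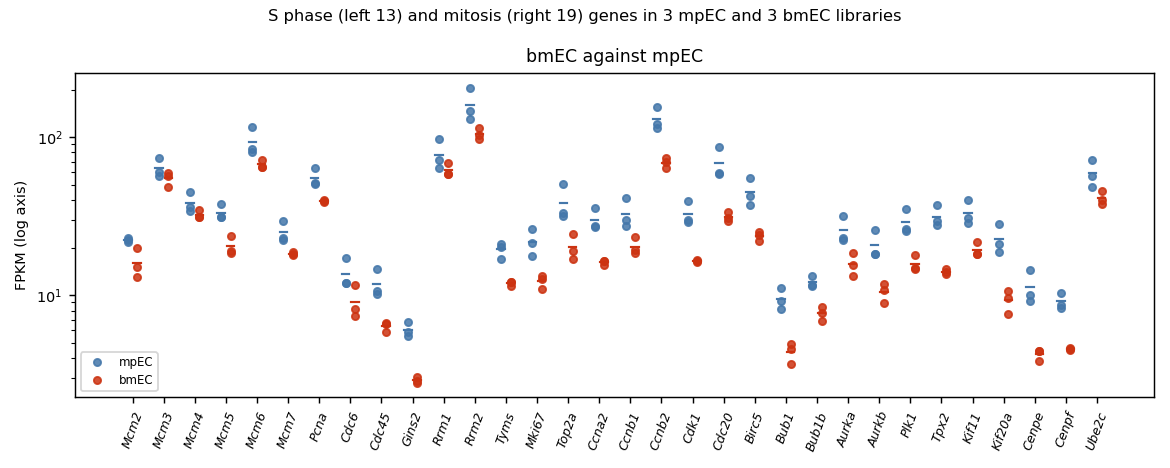
FPKM (log y axis) of the 13 S phase members (left) and 19 mitosis members (right) in 3 mpEC libraries (blue) and 3 bmEC libraries (red); each point is a library and each bar a group mean. The groups are apart in all 19 mitosis members and in 10 of 13 S phase members.

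G1 genes did not move as one. Ccne2, an E-type cyclin, went from 31.2, 25.4 and 30.5 FPKM in mpECs down to 16.0, 14.2 and 13.9 FPKM (log2 fold change -0.93, SE 0.11, limma adjusted p = 0.000707), whereas its relative Ccne1 was at 8.09, 6.40 and 5.92 against 4.43, 7.19 and 8.78 FPKM, with overlapping groups. Of the D-type cyclins, Ccnd1 was at 33.7, 46.1 and 45.4 against 20.4, 32.3 and 28.0 FPKM and Ccnd2 at 45.0, 53.5 and 54.2 against 37.4, 42.02 and 37.6 FPKM. Both fell (limma adjusted p = 0.0424 and 0.0294), and in both the mpEC replicate 1 library was the lowest of its group, unlike in the S phase and mitosis members. Ccnd3 (17.6, 19.8 and 23.2 against 19.5, 17.0 and 27.4 FPKM) overlapped between groups. Cdk2, the kinase partner of cyclin E, was the only S phase, mitosis or G1 member with each bmEC library above each mpEC library, at 66.5, 58.5 and 59.9 FPKM against 55.7, 49.9 and 47.8 FPKM (log2 fold change 0.26, SE 0.09, limma adjusted p = 0.0727). It did not pass, but passed without mpEC replicate 1 (limma adjusted p = 0.0440). E2f1 was the member with the lowest level in each of these libraries, 0.436 to 1.98 FPKM.

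Of the inhibitors, Cdkn2c, which encodes the INK4 protein p18, fell from 3.01, 4.22 and 3.53 to 1.76, 1.57 and 1.30 FPKM (log2 fold change -0.85, SE 0.14, limma adjusted p = 0.00446). Cdkn1a, which encodes p21, was at 72.6, 62.4 and 68.7 against 86.9, 80.3 and 50.9 FPKM, and Cdkn1b, which encodes p27, at 5.40, 4.12 and 4.004 against 3.31, 5.06 and 4.20 FPKM. Both overlapped between groups. In a wider list of regulators, 1 of 42 tested genes rose and 7 fell. The riser was Cdkn1c, the p57 inhibitor, at 15.7, 19.05 and 14.6 FPKM in mpECs and 25.9, 32.0 and 27.8 FPKM in bmECs, and 30.65% of its exon bases lie under Gm44732 on the other strand. Among those that fell, Cdkn2b, an INK4 inhibitor, went from 6.62, 6.33 and 7.84 to 0.785, 0.607 and 0.854 FPKM, and Cdk4, the kinase it binds, from 78.9, 75.5 and 75.6 to 60.8, 54.7 and 57.0 FPKM.

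Wider lists of genes known from the same phases, chosen with earlier results of these data known, were counted in the same way. Of 61 tested genes of the wider mitosis list, 54 fell and 0 rose, with a median log2 fold change of -0.85, and of 55 tested genes of the wider S phase list, 27 fell and 0 rose, with a median of -0.44. The largest mitosis changes were those of Fam64a (10.8, 9.04 and 8.80 against 2.69, 1.13 and 1.44 FPKM) and Cep55, a protein of the last step of cytokinesis (15.5, 10.7 and 11.4 against 3.76, 3.20 and 2.97 FPKM). In the S phase list they were those of the primase subunit Prim1 (17.5, 12.3 and 12.6 against 7.54, 6.26 and 6.02 FPKM) and of Hells (11.6, 8.35 and 8.95 against 4.69, 4.37 and 4.73 FPKM).

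Markers of other cells were set beside these differences. Of 11 tested erythroid markers 0 fell and 1 rose in bmECs, with the summed list at 28418 to 53067 FPKM in mpECs and 42717 to 60589 FPKM in bmECs. All 11 neutrophil markers had log2 fold changes below 0 (median -0.67, range -0.81 to -0.32) and 0 passed, with the list at 11785 to 28134 FPKM in mpECs and 9529 to 14065 FPKM in bmECs. All 10 tested B cell markers were below 0 too (median -0.52, range -0.83 to -0.09) and 1 fell, with the list at 210.1 to 431 FPKM and 170.2 to 233 FPKM. These medians lie between those of the S phase and the mitosis members. Macrophage markers summed to 1131 to 2072 FPKM in mpECs and 768 to 1082 FPKM in bmECs. Of 7 tested, 4 were below 0 and 3 above, and 1 fell. The 5 markers of any white blood cell were all below 0 (median -0.45), and the 5 tested megakaryocyte markers all above 0 (median 0.27), and 0 passed in either list. Osteoblast markers summed to 139 to 712 FPKM in mpECs and 42.1 to 54.1 FPKM in bmECs, and chondrocyte markers to 21.7 to 24.3 FPKM and 0.0116 to 0.252 FPKM, with Col2a1, Matn1 and Col9a1 at 0 in every bmEC library. Of 6 tested osteoblast markers 4 fell and 0 rose (median log2 fold change -4.22). All 4 tested chondrocyte markers fell (median -2.35). Stroma markers summed to 178 to 249 FPKM in mpECs and 483 to 528 FPKM in bmECs, and 2 of 5 tested rose. The part of these cells in the cell cycle differences was not tested. Endothelial markers summed to 1198 to 1560 FPKM in mpECs and 1511 to 1600 FPKM in bmECs, where 4 of 10 tested rose and 3 fell. On reads recovered from FPKM, limma-voom moved the median of all genes by -0.21, and 25.5% rather than 55.2% of its calls were higher in bmECs. All 13 S phase and 19 mitosis members were lower there, with medians of -0.69 and -1.13 before that shift is taken off.

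**Figure D3:**
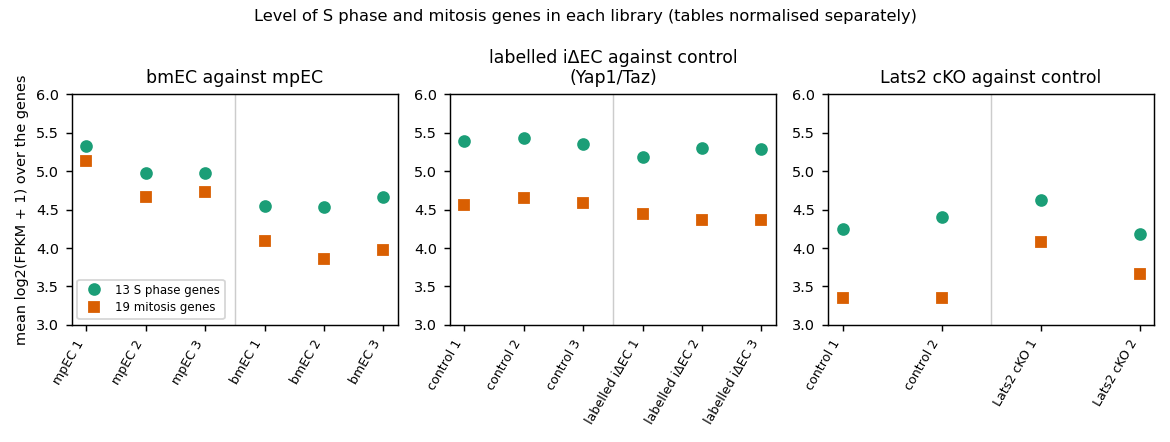
Mean log2(FPKM + 1) over the 13 S phase members (circles) and the 19 mitosis members (squares) in each library of the 3 separately normalised tables. The gap between mitosis and S phase levels is wider in bmECs than in mpECs, and narrower in Lats2 iΔEC libraries than in their controls.

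The difference between the levels of mitosis and S phase genes was also taken within each library, since a scaling of a whole library moves both lists. In mpECs the mean log2 level of the mitosis members lay below that of the S phase members by 0.25 (SD 0.05, n = 3), and in bmECs by 0.61 (SD 0.13, n = 3). The 3 mpEC values, from -0.31 to -0.20, did not overlap the 3 bmEC values, from -0.69 to -0.45. Summed over the lists, S phase members reached 553 to 751 FPKM in mpECs and 425 to 470 FPKM in bmECs, and mitosis members 575 to 809 FPKM and 327 to 388 FPKM.

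Comparison of the libraries labelled Yap1/Taz iΔEC with controls asked what loss of these coactivators changes in bone ECs. The gene totals of Wwtr1 and Yap1 in these libraries did not show that loss, which the study reports from PCR and staining. No member passed: 0 rose and 0 fell at a limma adjusted p under 0.05, where 0.883% of all 11320 genes tested were higher and 0.424% lower. At an unadjusted p under 0.05, 8 members were lower and 0 higher, where 8.08% of all genes were lower and 9.79% higher, and limma-voom on recovered reads called 2 lower, Ccnd2 and Cenpf. Of 42 members, 34 were below 0, with a median log2 fold change of -0.12 for S phase and -0.19 for mitosis members. By staining of the metaphysis, the study itself counted more proliferating (EdU-positive) ECs in Yap1/Taz mutants. That count runs in the opposite direction to these small RNA shifts, and the reason was not tested.

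The shifts of Mcm2 to Mcm7 and Pcna were small, and 0 of 7 passed. Mcm6, the most abundant member in this table, was at 173, 159 and 153 FPKM in controls and 136, 159 and 165 FPKM in the labelled libraries. Pcna was at 139, 123 and 119.9 against 126, 141 and 133 FPKM, and Mcm2 was at 68.3, 76.2 and 67.6 against 52.3, 61.2 and 67.4 FPKM (log2 fold change -0.23, SE 0.11, limma adjusted p = 0.318), the Mcm gene with the largest shift. Mcm3 was at 87.7, 81.3 and 74.2 against 58.9, 72.9 and 77.4 FPKM and Mcm4 at 23.4, 37.9 and 32.1 against 26.3, 27.5 and 28.5 FPKM, with overlapping groups. Mcm5 was at 107, 93.8 and 86.8 against 77.0, 91.0 and 91.1 FPKM and Mcm7 at 68.5, 71.9 and 63.8 against 61.0, 67.0 and 68.4 FPKM, which overlapped as well. Of this set of 7, Mcm2 was the only gene whose groups were apart. The standard errors of the 42 log2 fold changes ranged from 0.09 to 0.27.

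The lowest adjusted p of a member belonged to Ccnd2, a D-type cyclin, at 13.3, 17.2 and 11.1 FPKM in controls and 8.45, 7.44 and 9.08 FPKM in the labelled libraries (log2 fold change -0.66, SE 0.15, limma adjusted p = 0.0654). The next was Cenpf, at 4.29, 4.81 and 4.24 against 3.21, 2.53 and 3.12 FPKM (limma adjusted p = 0.108). Plk1 followed, at 7.08, 10.2 and 11.3 against 7.19, 4.97 and 5.91 FPKM with overlapping groups (limma adjusted p = 0.130). Mki67 was at 65.5, 66.7 and 73.2 against 63.3, 56.9 and 62.6 FPKM and Ccnd1 at 16.2, 16.0 and 17.4 against 12.6, 14.2 and 15.2 FPKM, each without overlap and neither past the threshold. In 9 of 19 mitosis members, but 2 of 13 S phase members, each labelled library was below each control, where 11.3% of all genes tested showed this (12.3% were above, 23.6% either). Cdkn1a was at 17.2, 19.02 and 11.5 against 15.6, 20.6 and 25.9 FPKM.

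In the wider lists, 3 of 65 tested mitosis genes fell and 0 rose, and of 56 tested S phase genes 0 passed, 17 being lower at an unadjusted p under 0.05. Over all genes tested, 0.424% fell and 0.883% rose, and 8.08% were lower at the unadjusted threshold. The mitosis genes that led were Sgo1, the shugoshin that guards cohesion at centromeres (8.52, 6.14 and 5.77 against 3.04, 3.19 and 3.00 FPKM), and Hmgb2, a chromatin protein (29.3, 29.8 and 30.1 against 22.0, 17.5 and 21.3 FPKM). Among regulators the proto-oncogenes Myc (40.3, 48.0 and 41.0 against 27.0, 19.5 and 22.3 FPKM, log2 fold change -0.89, SE 0.13, limma adjusted p = 0.0235) and Mycn (9.66, 6.97 and 8.44 against 4.10, 2.60 and 2.73 FPKM) fell, and the stress gene Gadd45b rose (47.8, 51.3 and 48.2 against 70.2, 110.0 and 103 FPKM). All 11 B cell markers had log2 fold changes below 0 (median -0.52) and 0 passed, and the list summed to 450.1 to 557 FPKM in controls and 367 to 434 FPKM in the labelled libraries. Osteoblast markers summed to 28.9 to 36.3 FPKM and 8.58 to 17.8 FPKM, and endothelial markers to 544 to 588 FPKM and 660 to 784 FPKM. Of 5 tested osteoblast markers 3 fell and 0 rose. All 10 endothelial markers had log2 fold changes above 0 (median 0.36), and 1 rose. The labelled replicate 1 library had the highest summed erythroid (6746 FPKM) and neutrophil (4179 FPKM) markers of the 6. The part of these cells was not tested, and without that library 0 members passed and the S phase median was -0.05.

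Comparison of Lats2 iΔEC with control libraries asked what loss of Lats2, a kinase that restrains Yap1 and Taz, changes in bone ECs. Transcripts of cell cycle genes were raised in part: 12 of 42 members rose and 0 fell at a limma adjusted p under 0.05, where 11.8% of all 12453 genes tested were higher and 9.98% lower. Of 19 mitosis members 7 rose, with a median log2 fold change of 0.51 (range -0.13 to 1.00), and of 13 S phase members 2 rose, with a median of 0.04 (range -0.46 to 0.61). Of the mitosis members, 9 lay above every S phase member. By staining of the metaphysis, the study itself counted fewer proliferating (EdU-positive) ECs and more apoptotic ECs in Lats2 mutants. Those counts run in the opposite direction to the mitosis transcripts of the sorted bone ECs here, and the reason was not tested. Both Lats2 iΔEC libraries exceeded both controls in 13 of 19 mitosis members and 3 of 13 S phase members, where 34.0% of all genes tested did (34.2% were below, 68.2% either). The calls rest on having both controls: without either control library 0 members and 0 genes of any kind passed (2724 and 2879 genes at an unadjusted p under 0.05). Without Lats2 iΔEC replicate 1 the count was 6 higher and 3 lower, and without replicate 2 it was 7 higher.

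Cdk1, which lies on chromosome 10 from 69335146 to 69352938 (GRCm38), was at 12.9 and 12.9 FPKM in controls and 28.5 and 25.1 FPKM in Lats2 iΔEC libraries, 2.08-fold higher by group means (log2 fold change 1.00, SE 0.13, limma adjusted p = 0.0118). The APC/C genes also rose, Cdc20 at 21.8 and 20.3 against 40.6 and 41.3 FPKM (log2 fold change 0.93, SE 0.11, limma adjusted p = 0.0115) and Ube2c at 14.7 and 13.3 against 25.9 and 26.7 FPKM (limma adjusted p = 0.0135). Birc5 was at 8.74 and 10.7 against 19.7 and 16.7 FPKM and Plk1 at 12.1 and 12.4 against 26.2 and 19.1 FPKM. The kinetochore genes Cenpe (2.80 and 2.41 against 6.85 and 4.55 FPKM) and Cenpf (1.88 and 2.03 against 4.57 and 3.89 FPKM) rose from a low level, 2.19-fold and 2.17-fold by group means. These ratios were above that of Cdk1, while Cdk1 had the larger log2 fold change on the FPKM + 1 scale, which understates changes of low genes. Of these 7 risers, 6 have CHR letters in the promoter window, and of the 8 other mitosis members with a window, 5 have them.

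Mki67 and Kif11 did not pass. Mki67 was at 8.60 and 7.51 FPKM in controls and 9.78 and 7.30 FPKM in Lats2 iΔEC libraries (log2 fold change 0.07, SE 0.18, limma adjusted p = 0.815), and Kif11 was at 6.67 and 6.10 against 8.47 and 3.83 FPKM, with overlapping groups in both. Ccnb2 (29.3 and 29.1 against 53.5 and 38.1 FPKM) and Tpx2 (8.25 and 7.87 against 17.9 and 11.5 FPKM) had groups apart but did not pass (limma adjusted p = 0.0704 and 0.0654). The replicate 1 library of Lats2 iΔEC had the higher value of the pair in all 13 S phase and in 17 of 19 mitosis members.

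In the S phase set, Pcna was at 20.1 and 20.6 FPKM in controls and 28.7 and 28.1 FPKM in Lats2 iΔEC libraries, 1.40-fold higher (log2 fold change 0.46, SE 0.11, limma adjusted p = 0.0423). Tyms was at 7.79 and 8.81 against 13.4 and 12.9 FPKM and rose too (limma adjusted p = 0.0327). The call of Pcna held in 3 and that of Tyms in 7 of 12 alternative fits. None of Mcm2 to Mcm7 passed. Mcm2 was at 29.4 and 36.0 against 41.2 and 27.1 FPKM, Mcm3 at 52.8 and 61.5 against 61.5 and 42.1 FPKM and Mcm4 at 23.7 and 26.8 against 25.2 and 12.9 FPKM. In each of the 3, replicate 2 of Lats2 iΔEC was the lowest of the 4 libraries. Mcm5 was at 29.2 and 31.4 against 40.9 and 30.0 FPKM and Mcm6 at 55.7 and 59.2 against 70.8 and 54.8 FPKM. Mcm7, at 21.9 and 24.7 against 20.4 and 15.3 FPKM, was below both controls in both Lats2 iΔEC libraries (limma adjusted p = 0.176).

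**Figure D4:**
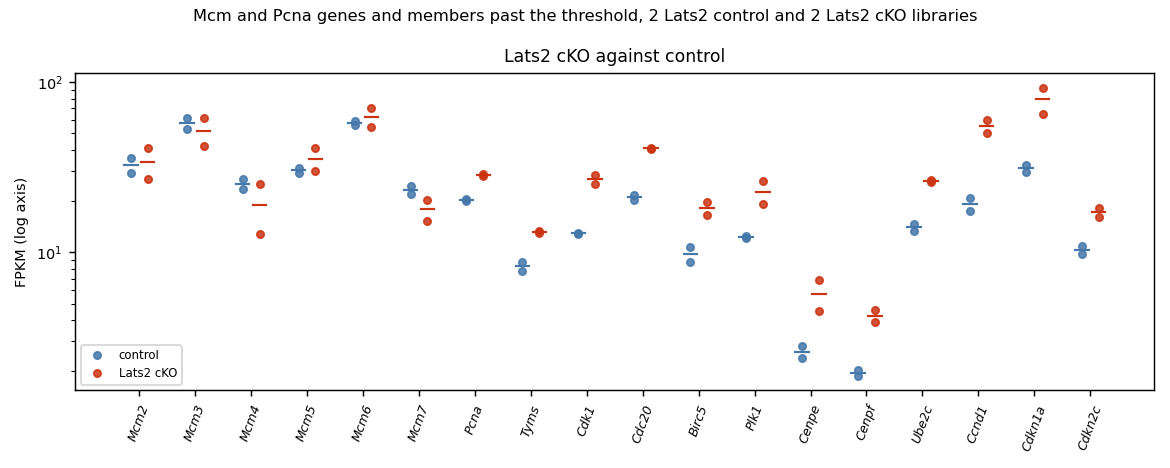
FPKM (log y axis) of Mcm2 to Mcm7 and Pcna and of the members that rose, in 2 control libraries (blue) and 2 Lats2 iΔEC libraries (red, marked Lats2 cKO); each point is a library and each bar a group mean. The groups are apart in all 12 risers, whereas among Mcm2 to Mcm7 they are apart only in Mcm7, which was lower.

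The largest change of any member here was that of Ccnd1, the cyclin D1 gene on chromosome 7 from 144929931 to 144939925. It was at 17.5 and 20.9 FPKM in controls and 50.2 and 59.9 FPKM in Lats2 iΔEC libraries, 2.87-fold higher (log2 fold change 1.47, SE 0.15, limma adjusted p = 0.00912), and 23.4% of its exon bases lie under LTO1 on the other strand. The other D-type cyclins lay on the opposite side of 0, with Ccnd2 at 37.0 and 34.9 against 30.9 and 19.7 FPKM and Ccnd3 at 49.4 and 61.1 against 39.9 and 41.6 FPKM, without passing (limma adjusted p = 0.1504 and 0.0932). Of the 3 inhibitors, 2 rose. Cdkn1a, on chromosome 17 from 29090976 to 29100727, was at 29.8 and 32.7 against 65.3 and 92.8 FPKM (log2 fold change 1.29, SE 0.19, limma adjusted p = 0.0150), and Cdkn2c at 9.73 and 11.0 against 16.2 and 18.3 FPKM (limma adjusted p = 0.0274). Cdkn1b was at 3.09 and 2.84 against 4.02 and 5.52 FPKM and did not pass (limma adjusted p = 0.113).

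Of the wider lists, 18 of 63 tested mitosis genes rose and 1 fell, with a median log2 fold change of 0.46. Of 53 tested S phase genes 3 rose and 2 fell, with a median of 0.14. Over all genes tested, 11.8% were higher and 9.98% lower, so the S phase counts lie below the share of all genes in both directions. Fam64a (5.25 and 5.18 against 18.9 and 17.2 FPKM) and Sgol2, a second shugoshin (1.67 and 1.80 against 6.97 and 5.53 FPKM), rose the most, and the phosphatase Cdc25b, which activates Cdk1, fell (16.1 and 14.8 against 9.10 and 5.71 FPKM). Kctd18 covers 35.04% of the Sgol2 exon bases on the other strand. In the S phase list, Rpa3 and the licensing inhibitor Gmnn led the risers, at 12.03 and 9.77 against 17.7 and 17.3 FPKM and 9.05 and 8.84 against 13.2 and 13.03 FPKM. Slbp, the histone mRNA binding protein, and Pola2, a polymerase alpha subunit, fell, at 43.0 and 33.1 against 24.9 and 18.1 FPKM and 23.2 and 31.0 against 14.9 and 15.7 FPKM. Of 42 regulators 4 rose, which is below the share of all genes, and 8 fell. Cdkn2b went from 3.17 and 2.65 to 14.5 and 33.5 FPKM and Mnat1, an assembly factor of the Cdk-activating kinase, from 6.02 and 4.56 to 10.05 and 18.04 FPKM, while Cdkn1c fell from 168 and 126 to 55.3 and 32.6 FPKM and Sesn1 from 31.6 and 24.8 to 12.3 and 7.79 FPKM. Gm44732 covers 30.65% of the Cdkn1c exon bases on the other strand.

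Markers of several blood cell types were lower in Lats2 iΔEC libraries. Of 8 tested B cell markers 7 fell, of 11 neutrophil markers 8 fell and of 11 erythroid markers 4 fell. Macrophage markers were mixed, with 3 of 5 tested below 0 and 2 above (range -2.71 to 1.47), and 1 fell. Summed erythroid markers were at 3796 and 2560 FPKM in controls and 1435 and 276 FPKM in Lats2 iΔEC libraries, and the neutrophil precursor genes Elane and Mpo were at 0 in replicate 2. Stroma markers summed to 391 and 438 FPKM in controls and 145 and 128 FPKM in Lats2 iΔEC libraries, although 3 of 6 tested rose and 1 fell. Chondrocyte markers summed to 13.9 FPKM in control replicate 1 and 0.220 to 1.90 FPKM in the other 3 libraries. Endothelial markers summed to 2496 and 2676 FPKM in controls and 2520 and 2453 FPKM in Lats2 iΔEC libraries. Within that list 1 of 10 tested rose and 3 fell, with log2 fold changes from -1.81 to 0.85. The part of these cells in the member differences was not tested. Limma-voom moved the median of all genes by -0.13, and 39.2% rather than 54.1% of its calls were higher. The median of the S phase members was -0.09 there and that of the mitosis members 0.41, both before that shift is taken off.

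**Figure D5:**
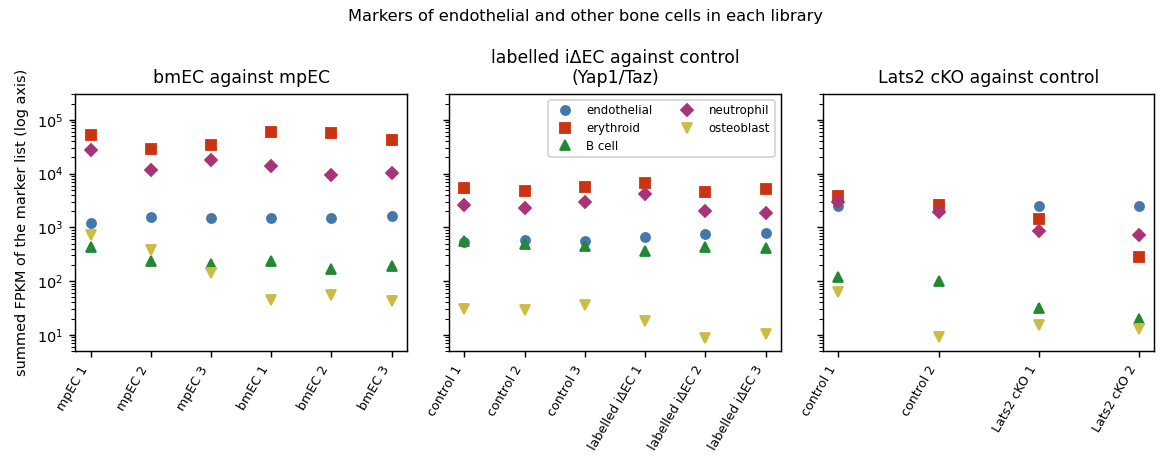
Summed FPKM (log y axis) of marker lists for endothelial, erythroid, B cell, neutrophil and osteoblast identity in each library of the 3 tables. The erythroid, B cell and neutrophil sums are lower in Lats2 iΔEC libraries than in controls. The endothelial sum stays between 2453 and 2676 FPKM, although 1 of its 10 markers rose and 3 fell.

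Within libraries, the mitosis members lay below the S phase members by 0.98 (SD 0.11, n = 2) on the mean log2 scale in Lats2 controls and by 0.54 (SD 0.02, n = 2) in Lats2 iΔEC libraries, and the values did not overlap (-1.06 and -0.90 against -0.55 and -0.53). In the Yap1/Taz table the gap was 0.79 (SD 0.04, n = 3) in controls and 0.86 (SD 0.11, n = 3) in the labelled libraries, with overlapping values. The 3 tables share no library. Of the 12 members higher in Lats2 iΔEC libraries, 11 (91.7%) were lower in bmECs than in mpECs, which is 34.4% of the 32 that were lower there, and the exception was Cdkn1a. The share in bmECs stands against 32 of all 42 members lower in that comparison. All 19 mitosis members were lower there, so the overlap was given beforehand for the 7 mitosis members among the 12.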

How the data were processed

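RNA from sorted bone ECs was sequenced as stranded total RNA on a MiSeq instrument with paired-end reads, in 3 mpEC, 3 bmEC, 3 plus 3 Yap1/Taz and 2 plus 2 Lats2 libraries. Per the study's methods, the authors aligned reads with TopHat to mm10 (GRCm38) and counted them with HTSeq 0.6.1. The authors deposited FPKM per gene, and how FPKM was made and the strand setting of the counting are not given in the sources used here. Members were found by symbol in the region and Lats2 tables and by Ensembl identifier in the Yap1/Taz tables, where 21375 of 21603 identifiers had a symbol. No column was left without a sample (0).

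Genes whose mean reached 1 FPKM were tested on log2(FPKM + 1), a scale that understates changes of low genes, with limma 3.58.1 in R 4.3.3 (mean-variance trend, 2-sided) and Benjamini-Hochberg adjustment over all genes tested. A gene was called at an adjusted p under 0.05, and rose, fell, passed, higher and lower refer to this. The test was checked on simulated data. The methods' own test, DESeq2 on counts, was not run because the deposited values are FPKM. Reads were recovered from FPKM steps and gene lengths, with 62.4% to 70.1% of values up to 20 reads within 0.02 of a whole number, and were used for limma-voom only. The fewest recovered reads of a member in a library were 13. Members, lists and tests were chosen with earlier results of these data known. All members were placed by role. Members called with a mean of at least 5 FPKM in a group, and the Mcm and Pcna set, are given by library, as are a few others chosen after their values were seen. Of each wider list, the 2 called genes with the largest change per direction and at least 5 FPKM are named. Alternatives were another pseudocount, other filters, quantile and median ratio scaling, no trend, stricter thresholds (adjusted p under 0.01 and a log2 fold change past 0.5), a replicate block, limma-voom and leaving out each library. Exon overlaps come from the GENCODE annotation of GRCm38, and 5 members (Pcna, Tyms, Ccnb1, Ccnb2 and Ccnd3) have annotated pseudogenes whose reads the counting could share. Promoters were searched with Python 3.11.15.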

Additional observations from a re-analysis of the deposited data

How the results depend on the processing

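Every one of the 32 members lower in bmECs and the 12 higher in Lats2 iΔEC libraries kept its sign in each alternative fit that tested it, and 22 of the 32 but 0 of the 12 were called in all of those. The filter at 5 FPKM left out Gins2 and Cdkn2c for the regions and Cenpe and Cenpf for Lats2. With stricter thresholds, 21 members were lower in bmECs and 1 was higher in Lats2 iΔEC libraries, and without a filter on low values, which tested more genes, 5 were higher there. Limma-voom gave medians of -0.693 (S phase) and -1.127 (mitosis) in bmECs and -0.184 and -0.244 in the libraries labelled Yap1/Taz iΔEC, with 2 members lower in the latter and 2 lower in Lats2 iΔEC libraries (Ccnd3 and Cdk2), and the cause was not tested. Quantile normalisation gave an S phase median of -0.172 in the libraries labelled Yap1/Taz iΔEC. Leaving out 1 library at a time gave 0 to 1 members higher in bmECs and an S phase median of -0.63 to -0.391. In the libraries labelled Yap1/Taz iΔEC the S phase median ran from -0.164 to -0.049, and without its replicate 1 the calls over all genes went from 100 higher and 48 lower to 215 and 78, against 0 and 1 without replicate 2 or 3. For Lats2, the same gave 0 to 7 members higher, 0 to 3 lower, an S phase median of -0.258 to 0.331 and a mitosis median of 0.204 to 0.843, where a lone library is assumed to vary like the other group. Whether replicate numbers pair the region samples stayed open. Deviations of same-numbered region libraries correlated at 0.31, 0.09 and 0.10, and those of other region pairs at -0.21 to 0.12. For Yap1/Taz, same-numbered libraries correlated at -0.18, -0.12 and -0.16, which shows no pairing. For Lats2 the value was 0.07, from only 2 libraries per group, which cannot decide it. With a replicate block, 1 member was higher (Cdk2) and 32 were lower in bmECs. Calls over all genes in bmECs went from 1481 higher and 1201 lower to 1597 and 1475. In the libraries labelled Yap1/Taz iΔEC, 0 members passed with the block (29 and 16 of all genes in place of 100 and 48). For Lats2, 12 members were higher (1457 and 1198 of all genes in place of 1468 and 1243).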
